A study of Rattus norvegicus with 30 samples.

Results

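The genes followed here are 48 genes of mitosis, the stage in which a cell separates its copied chromosomes and divides. They were chosen as a list of gene symbols, with earlier results of these data known. Only probe sets that carry 1 gene symbol in the platform annotation were used. Each gene was read from the brightest of these, by the mean over all 30 arrays. Of the 48 genes 43 were measured, among 14217 genes named in this way. Nek2, Ndc80, Tpx2, Ncapg and Anln had no such probe set and are not described. The 43 genes were read by 58 probe sets, and 11 genes had more than 1.

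The rats were 30 female DA rats, aged 10 weeks, and irinotecan was the only drug tested. Treated rats received 200 mg/kg of irinotecan once into the peritoneum under light halothane anaesthesia and were killed 1, 6, 24 or 72 h later, and the controls, called 0 h, received no irinotecan. Each time had 6 rats, and RNA of whole stomach, whole jejunum and whole colon was pooled from 3 rats per array, so that each of the 15 groups of tissue and time had 2 arrays and no single rat was measured. The sources used here do not say whether the 0 h rats were anaesthetised or injected with vehicle.

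Irinotecan is converted in the body to a poison of topoisomerase I, which leaves breaks in DNA as it is copied. In the gut, dividing cells lie in the crypts of the jejunum and colon and in the isthmus of the gastric glands, and they replace the surface lining continually. Cyclin B with CDK1 starts mitosis, kinases and kinetochores attach the chromosomes to the spindle, the spindle checkpoint delays separation until all are attached, and the anaphase-promoting complex then destroys securin and cyclin B. Transcripts of most of these proteins accumulate in G2 and mitosis and are low in cells that do not divide. In whole tissue, fewer cells in G2 or mitosis and less RNA per such cell cannot be told apart.

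The values are log2 signals, so a difference of 1 is a 2-fold change. Each ± below is the standard error of a log2 fold change from limma, and "rose" and "fell" are used only where its p, adjusted over all 31042 probe sets by the Benjamini-Hochberg method, was under 0.05. No test was made on the list as a whole. The counts are set beside the share of all probe sets that passed in the same direction. As the list was chosen with earlier results known, these shares describe it and do not test it.

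The tissues carried their own transcripts: Atp4a, a proton pump subunit of stomach parietal cells, Apoa4, an apolipoprotein of the jejunum, and Car1, a carbonic anhydrase of the colon, had lowest values of 12.78, 13.63 and 11.99 over the arrays of their own tissues. Array pairs of a group correlated at 0.9469 to 0.9959 over the probe sets. Some arrays stood apart. Pancreatic acinar transcripts (9 genes, median per array) were at 13.44 in stomach 72 h replicate 1, 12.37 in colon 72 h replicate 2 and 9.49 in colon 6 h replicate 1, and Pgc, a stomach transcript, was at 13.67 in colon 24 h replicate 1. Jejunal markers were highest among the colon arrays in 24 h replicate 2, and squamous epithelium markers varied among the stomach arrays. The GAPDH probe set of the 3′ end lay above that of the 5′ end by 0.82 in jejunum 24 h replicate 1 and by 0.56 in stomach 24 h replicate 1. Results that change without these arrays are given with both values.

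Mitosis genes were lowest 6 h after irinotecan in the jejunum and stomach, lowest at 6 or 24 h in the colon, and back near or above the untreated level at 72 h. In the jejunum 28 of the 43 fell at 6 h, while 1.19% of all probe sets did, and the median log2 fold change was -0.65. In the colon 35 fell at 6 h (0.986% of all probe sets) and 37 at 24 h (0.854%), with a median of -1.18 at both times. In the stomach 0 passed at 6 h with limma (0.0322% of all probe sets in either direction), although all 43 fold changes were negative, with a median of -0.53. Of the 43 genes 25 had an unadjusted p under 0.05, as had 2741 of 31042 probe sets. At 72 h 34 genes had risen above 0 h in the jejunum (11.9% of all probe sets), against 0 in the colon (1.32% in either direction) and 0 in the stomach (0.00644%). With 1 array left out, the counts ran from 1 to 3 for jejunum 6 h, 9 to 22 for jejunum 72 h, 23 to 33 for colon 6 h and 0 to 38 for colon 24 h, while the medians of these 4 comparisons kept their sign, and the arrays are named with each result below. The medians over all probe sets were -0.02 in the jejunum and 0.03 in the colon at 6 h, and -0.07 in the jejunum at 72 h.

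**Figure D1:**
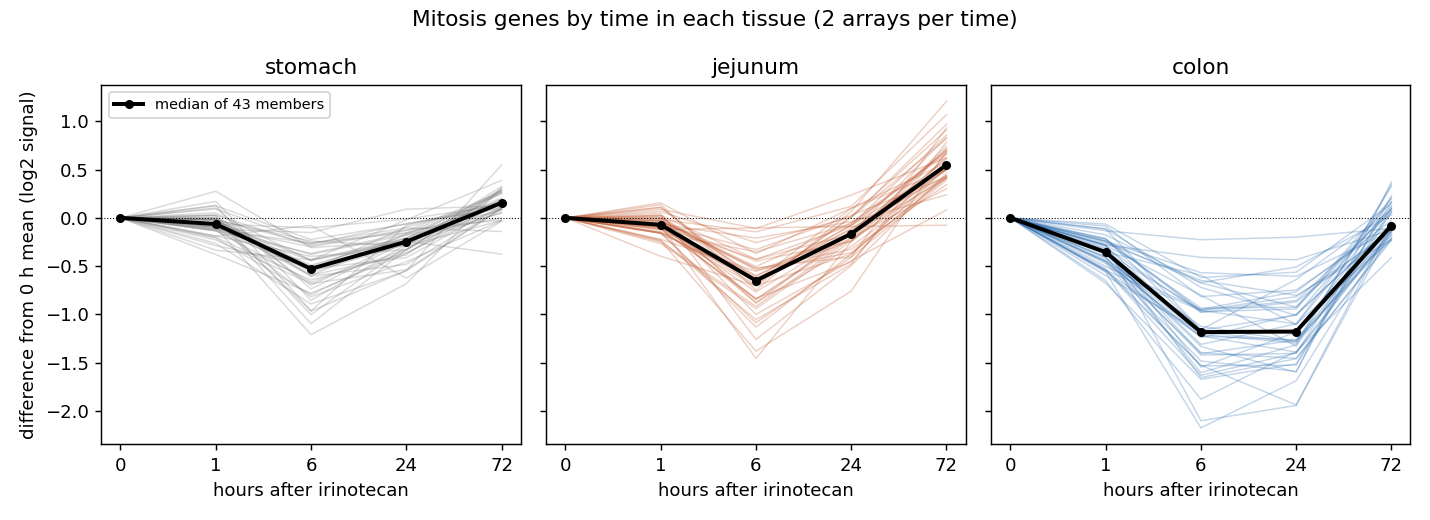
Mean of 2 arrays at each time minus the mean of the 2 untreated arrays (0 h), in log2 signal, for each of the 43 mitosis genes (thin lines) and their median (thick line) in stomach, jejunum and colon; times on the axis are evenly spaced. The median was lowest at 6 h in the stomach (-0.53) and jejunum (-0.65), stood at -1.18 at 6 and 24 h in the colon, and was 0.55 at 72 h in the jejunum.

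Of the 43 genes, 42 had their lowest mean at 6 h in the jejunum and 40 in the stomach. In the colon 26 were lowest at 6 h and 17 at 24 h. The highest mean was at 72 h for 42 genes in the jejunum and 34 in the stomach, where 72 h replicate 1, the array with pancreatic transcripts, was above replicate 2 for all 43, and in the colon at 0 h for 25 and at 72 h for 18. At 1 h no gene passed in any tissue with limma: 0 of 43 in the stomach (0.0161% of all probe sets, 0 at an unadjusted p under 0.05), 0 in the jejunum (0.0354%, 1 at an unadjusted p under 0.05) and 0 in the colon (0% of all probe sets, 25 at an unadjusted p under 0.05). Of all 31042 probe sets 1776, 1467 and 4624 had an unadjusted p under 0.05 in stomach, jejunum and colon. The colon fold changes at 1 h were all 43 negative, with a median of -0.36, and both 1 h arrays lay below both 0 h arrays for 35 genes, against 24.7% of all probe sets.

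Of the 9 roles, the cyclins and CDK1 with their partners had the lowest median at 6 h in both jejunum and colon. All 6 fell in the jejunum at 6 h, with a median of -1.17, and all 6 in the colon, with a median of -1.50. Ccnb2 encodes cyclin B2, a partner of CDK1. Jejunal Ccnb2 was 9.17 and 8.998 at 0 h, 9.16 and 8.85 at 1 h, 7.68 and 7.58 at 6 h, 8.65 and 9.03 at 24 h, and 9.65 and 9.77 at 72 h. Colonic Ccnb2 was 9.47 and 9.58 at 0 h, 9.17 and 8.75 at 1 h, 7.08 and 7.61 at 6 h, 7.68 and 7.99 at 24 h, and 9.40 and 9.44 at 72 h. The 6 h arrays lay far below the 0 h arrays in both tissues without overlap: Ccnb2 fell by 1.46 ± 0.15 (adjusted p = 0.00388) in the jejunum, a 2.74-fold lower signal, and by 2.18 ± 0.19 (adjusted p = 0.000775) in the colon, a 4.52-fold lower signal. By 72 h jejunal Ccnb2 was above 0 h in both arrays. It rose by 0.63 ± 0.15 (adjusted p = 0.0178), whereas colonic Ccnb2 was -0.10 ± 0.19 (adjusted p = 0.839) from 0 h.

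Cdkn3 encodes a phosphatase that acts on cyclin-dependent kinases. Jejunal Cdkn3 was 8.98 and 8.84 at 0 h, 8.996 and 8.92 at 1 h, 7.58 and 7.72 at 6 h, 8.28 and 8.55 at 24 h, and 9.40 and 9.34 at 72 h. Colonic Cdkn3 was 9.78 and 9.76 at 0 h, 9.65 and 9.35 at 1 h, 7.48 and 7.86 at 6 h, 7.83 and 7.82 at 24 h, and 9.49 and 9.81 at 72 h. Its pairs at 6 h did not overlap those at 0 h in either tissue, and it fell by 1.26 ± 0.11 (adjusted p = 0.00232) in the jejunum and by 2.10 ± 0.16 (adjusted p = 0.000507) in the colon. Cks2 encodes a small subunit that binds the kinase. Jejunal Cks2 was 9.72 and 9.55 at 0 h, 9.60 and 9.20 at 1 h, 8.14 and 8.37 at 6 h, 8.50 and 9.26 at 24 h, and 10.25 and 10.41 at 72 h. Colonic Cks2 was 9.90 and 10.09 at 0 h, 9.63 and 9.31 at 1 h, 8.39 and 8.55 at 6 h, 7.89 and 8.23 at 24 h, and 10.04 and 9.84 at 72 h. It fell by 1.38 ± 0.22 (adjusted p = 0.0166) in the jejunum and by 1.53 ± 0.15 (adjusted p = 0.00155) in the colon at 6 h, and the colon was lower still at 24 h, by 1.94 ± 0.15 (adjusted p = 0.00156) from 0 h.

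Ccna2 encodes cyclin A2, which acts in S phase and G2. Jejunal Ccna2 was 8.15 and 8.07 at 0 h, 8.15 and 8.35 at 1 h, 7.30 and 7.42 at 6 h, 8.37 and 7.99 at 24 h, and 9.37 and 9.26 at 72 h. Colonic Ccna2 was 8.41 and 8.57 at 0 h, 8.08 and 7.96 at 1 h, 6.74 and 7.28 at 6 h, 6.70 and 7.10 at 24 h, and 8.71 and 8.73 at 72 h. It fell by 0.75 ± 0.13 (adjusted p = 0.0207) in the jejunum and by 1.48 ± 0.18 (adjusted p = 0.0035) in the colon at 6 h. At 72 h both jejunal arrays stood above every other jejunal array, and Ccna2 rose by 1.21 ± 0.13 (adjusted p = 0.000911), the largest rise of the 43 genes there. Ccnb1 encodes cyclin B1. Jejunal Ccnb1 was 9.01 and 8.50 at 0 h, 8.62 and 8.36 at 1 h, 7.86 and 7.77 at 6 h, 8.25 and 8.78 at 24 h, and 9.33 and 9.61 at 72 h. Colonic Ccnb1 was 8.75 and 8.90 at 0 h, 8.63 and 8.21 at 1 h, 7.27 and 7.54 at 6 h, 7.45 and 7.39 at 24 h, and 9.01 and 8.97 at 72 h. The 2 untreated jejunal arrays of Ccnb1 were further apart than those of the other cyclins, it fell by 0.94 ± 0.21 (adjusted p = 0.044), and a second probe set of Ccnb1 fell by 1.49 ± 0.32 there. Cdk1 encodes the kinase itself. Jejunal Cdk1 was 9.34 and 9.12 at 0 h, 9.30 and 8.85 at 1 h, 7.96 and 8.33 at 6 h, 8.51 and 9.14 at 24 h, and 10.16 and 10.17 at 72 h. Colonic Cdk1 was 9.29 and 9.49 at 0 h, 9.24 and 8.78 at 1 h, 7.86 and 8.25 at 6 h, 7.47 and 8.11 at 24 h, and 9.96 and 9.56 at 72 h. It fell by 1.09 ± 0.22 (adjusted p = 0.0316) in the jejunum and by 1.33 ± 0.23 (adjusted p = 0.0254) in the colon, and rose by 0.93 ± 0.22 (adjusted p = 0.0179) at 72 h in the jejunum.

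**Figure D2:**
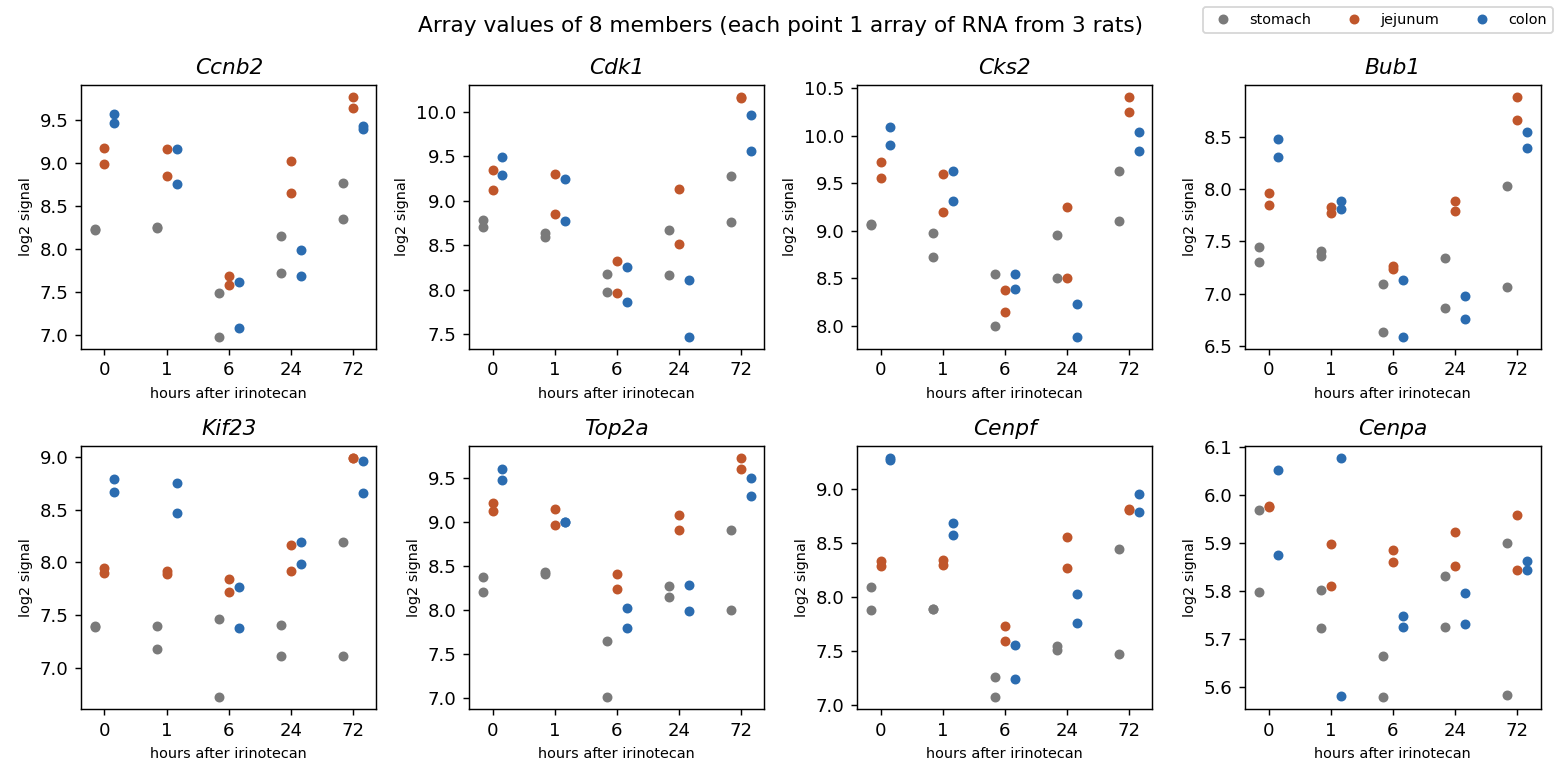
Log2 signal of 8 mitosis genes on every array, by hours after irinotecan (evenly spaced), with stomach, jejunum and colon side by side at each time; each point is 1 array of RNA pooled from 3 rats. For Ccnb2, Cdk1, Cks2, Bub1 and Top2a the 6 h points of jejunum and colon lie below all 0 h points of the same tissue, and for Cenpa all points lie between 5.58 and 6.08.

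Promoters are shown for 5 genes, to show the letters before the start of 4 genes of the cyclin and CDK1 group that fell in both tissues (Ccnb2, Cdk1, Cks2, Ccnb1) and of a gene that passed at no time (Cenpa). They were chosen after their values were seen. The sequences are RefSeq's (build GRCr8), from 250 bases before to 50 after the annotated start, 5′ to 3′ along the gene, and 38 of the 43 genes matched such a window. Capitals mark CCAAT (or ATTGG, the same on the other strand), the box bound by NF-Y, and TTTGAA (or TTCAAA on the other strand) and TTCGAA, forms of the cell cycle genes homology region bound by the MuvB complex.
Ccnb2: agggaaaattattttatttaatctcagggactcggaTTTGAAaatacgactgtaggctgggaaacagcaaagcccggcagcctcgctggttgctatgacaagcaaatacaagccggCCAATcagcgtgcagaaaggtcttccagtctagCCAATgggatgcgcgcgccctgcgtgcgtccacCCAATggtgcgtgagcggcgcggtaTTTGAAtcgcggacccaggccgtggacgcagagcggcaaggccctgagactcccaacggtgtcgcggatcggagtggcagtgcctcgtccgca
Cdk1: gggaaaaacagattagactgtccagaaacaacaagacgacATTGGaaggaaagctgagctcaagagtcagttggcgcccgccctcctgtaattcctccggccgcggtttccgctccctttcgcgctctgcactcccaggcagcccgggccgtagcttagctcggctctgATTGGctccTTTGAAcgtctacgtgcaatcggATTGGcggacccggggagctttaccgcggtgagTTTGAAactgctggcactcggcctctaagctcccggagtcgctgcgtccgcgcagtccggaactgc
Cks2: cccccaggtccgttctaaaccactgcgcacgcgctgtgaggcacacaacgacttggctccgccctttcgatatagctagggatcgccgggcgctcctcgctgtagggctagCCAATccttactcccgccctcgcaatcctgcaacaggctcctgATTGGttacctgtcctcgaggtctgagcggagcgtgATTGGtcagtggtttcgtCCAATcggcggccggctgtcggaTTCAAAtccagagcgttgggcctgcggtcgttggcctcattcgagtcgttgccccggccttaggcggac
Ccnb1: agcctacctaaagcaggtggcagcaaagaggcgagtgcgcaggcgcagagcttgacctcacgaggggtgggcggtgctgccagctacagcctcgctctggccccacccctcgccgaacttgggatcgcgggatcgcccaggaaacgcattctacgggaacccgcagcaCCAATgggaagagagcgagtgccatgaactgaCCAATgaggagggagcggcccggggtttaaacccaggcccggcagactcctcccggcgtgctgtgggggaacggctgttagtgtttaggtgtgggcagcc
Cenpa: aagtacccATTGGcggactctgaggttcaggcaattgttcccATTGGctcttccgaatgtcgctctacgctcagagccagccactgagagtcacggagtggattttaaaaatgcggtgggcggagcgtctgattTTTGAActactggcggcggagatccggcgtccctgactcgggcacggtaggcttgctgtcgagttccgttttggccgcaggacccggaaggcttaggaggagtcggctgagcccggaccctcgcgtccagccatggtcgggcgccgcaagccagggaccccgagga
The windows lie at chr8:79981609-79981908 (minus strand), chr20:19265043-19265342 (plus), chr17:13727470-13727769 (minus), chr2:33655176-33655475 (minus) and chr6:31431503-31431802 (minus). Ccnb2 had 3 CCAAT boxes, starting at -134, -101 and -68 from the start site, 33 bases apart. Cdk1 and Ccnb1 each had a pair 32 bases apart. Ccnb2, Cdk1, Cks2 and Cenpa also held TTTGAA on one of the strands, whereas the Ccnb1 window held neither form.

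Over the windows, searched on both strands, 29 of 38 mitosis genes (76.3%) held a CCAAT box, against 37.5% of 33469 windows in all, and no CCAAT matches overlapped. TTTGAA or TTCGAA stood in 27 (71.1%), against 19.7% of all windows. Both kinds stood in 23 (60.5%), against 7.95% of all windows and 5.81% of the 13193 windows of genes on the array. Within the list, the 6 h fold changes of genes with both had a median of -0.65 in the jejunum (23 genes), against -0.60 for the other 15, and of -1.19 in the colon, against -0.98. A match to letters is not a bound site, and these shares are descriptions without a test.

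The 4 spindle checkpoint genes all fell in the jejunum at 6 h, with a median of -0.65, and 3 of 4 fell in the colon, with a median of -1.22. All 4 rose in the jejunum at 72 h. Bub1 encodes a kinase at the unattached kinetochore. Jejunal Bub1 was 7.97 and 7.85 at 0 h, 7.83 and 7.78 at 1 h, 7.23 and 7.27 at 6 h, 7.88 and 7.79 at 24 h, and 8.88 and 8.65 at 72 h. Colonic Bub1 was 8.31 and 8.48 at 0 h, 7.89 and 7.81 at 1 h, 6.59 and 7.13 at 6 h, 6.75 and 6.98 at 24 h, and 8.39 and 8.54 at 72 h. No 6 h array reached the 0 h arrays of its tissue: Bub1 fell by 0.66 ± 0.10 (adjusted p = 0.0104) in the jejunum and by 1.53 ± 0.17 (adjusted p = 0.00213) in the colon. At 72 h in the jejunum it rose by 0.86 ± 0.10 (adjusted p = 0.00102).

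Bub1b encodes a checkpoint protein that inhibits CDC20. Jejunal Bub1b was 7.18 and 7.14 at 0 h, 7.04 and 7.09 at 1 h, 6.50 and 6.61 at 6 h, 7.13 and 6.95 at 24 h, and 7.82 and 7.60 at 72 h. Colonic Bub1b was 7.54 and 7.40 at 0 h, 7.13 and 6.90 at 1 h, 6.18 and 6.27 at 6 h, 6.51 and 6.43 at 24 h, and 7.49 and 7.26 at 72 h. It fell by 0.60 ± 0.10 (adjusted p = 0.0172) in the jejunum and by 1.24 ± 0.12 (adjusted p = 0.00129) in the colon, on one of the dimmer probe sets of the list. Ttk encodes the kinase that starts the checkpoint signal. Jejunal Ttk was 7.46 and 7.29 at 0 h, 7.45 and 7.52 at 1 h, 6.67 and 6.80 at 6 h, 7.10 and 7.33 at 24 h, and 8.28 and 8.13 at 72 h. Colonic Ttk was 8.06 and 8.15 at 0 h, 7.79 and 7.58 at 1 h, 6.72 and 7.07 at 6 h, 6.71 and 6.90 at 24 h, and 8.51 and 8.35 at 72 h. Ttk fell by 0.64 ± 0.11 (adjusted p = 0.0196) in the jejunum and by 1.21 ± 0.14 (adjusted p = 0.00284) in the colon at 6 h, and rose by 0.84 ± 0.11 (adjusted p = 0.00191) at 72 h in the jejunum. Ttk had 2 probe sets. Over the other settings, which include an average of both, its change ran from -0.72 to -0.55 in the jejunum at 6 h. It ran from -1.38 to -0.82 in the colon at 6 h and from 0.43 to 0.92 in the jejunum at 72 h. Mad2l1 carries the checkpoint signal to CDC20. Jejunal Mad2l1 was 8.37 and 8.23 at 0 h, 8.30 and 8.08 at 1 h, 7.39 and 7.55 at 6 h, 7.63 and 8.06 at 24 h, and 8.95 and 8.98 at 72 h. Colonic Mad2l1 was 8.28 and 8.34 at 0 h, 8.22 and 7.83 at 1 h, 7.41 and 7.61 at 6 h, 6.64 and 7.32 at 24 h, and 8.84 and 8.48 at 72 h. Mad2l1 fell by 0.83 ± 0.14 (adjusted p = 0.0192) in the jejunum at 6 h. Its colon change was -0.80 ± 0.22 (adjusted p = 0.131) at 6 h and passed at 24 h, when it fell by 1.33 ± 0.22 (adjusted p = 0.0189).

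Among the mitotic kinases 1 of 4 fell in the jejunum at 6 h and 2 of 4 in the colon, and all 4 rose in the jejunum at 72 h. Plk1 encodes the polo-like kinase of mitotic entry and centrosome maturation. Jejunal Plk1 was 8.45 and 8.32 at 0 h, 8.24 and 8.22 at 1 h, 7.74 and 7.80 at 6 h, 8.07 and 8.24 at 24 h, and 8.87 and 8.77 at 72 h. Colonic Plk1 was 8.01 and 8.22 at 0 h, 8.06 and 7.81 at 1 h, 7.55 and 7.33 at 6 h, 7.71 and 7.498 at 24 h, and 8.29 and 7.996 at 72 h. Plk1 fell by 0.62 ± 0.09 (adjusted p = 0.0107) in the jejunum at 6 h, and its colon change was -0.67 ± 0.15 (adjusted p = 0.067). Aurka encodes the kinase of spindle poles. Jejunal Aurka was 7.97 and 7.95 at 0 h, 7.81 and 7.80 at 1 h, 7.57 and 7.64 at 6 h, 8.08 and 7.71 at 24 h, and 8.64 and 8.60 at 72 h. Colonic Aurka was 7.96 and 8.05 at 0 h, 7.49 and 7.43 at 1 h, 7.05 and 7.05 at 6 h, 7.12 and 7.18 at 24 h, and 8.18 and 7.96 at 72 h. It fell by 0.96 ± 0.11 (adjusted p = 0.00224) in the colon at 6 h, was at -0.35 ± 0.11 (adjusted p = 0.129) in the jejunum, and rose by 0.66 ± 0.11 (adjusted p = 0.00534) in the jejunum at 72 h. Melk encodes a kinase found mainly in dividing cells. Jejunal Melk was 8.61 and 8.41 at 0 h, 8.51 and 8.56 at 1 h, 7.97 and 8.19 at 6 h, 8.66 and 8.20 at 24 h, and 9.01 and 9.07 at 72 h. Colonic Melk was 8.58 and 8.61 at 0 h, 8.30 and 8.27 at 1 h, 7.57 and 7.66 at 6 h, 7.59 and 7.86 at 24 h, and 8.58 and 8.38 at 72 h. Melk fell by 0.98 ± 0.12 (adjusted p = 0.00356) in the colon, and its jejunal change was -0.43 ± 0.15 (adjusted p = 0.152). Pbk encodes another kinase of dividing cells. Jejunal Pbk was 8.45 and 8.23 at 0 h, 8.39 and 8.22 at 1 h, 7.85 and 7.94 at 6 h, 8.22 and 7.97 at 24 h, and 8.88 and 8.81 at 72 h. Colonic Pbk was 8.35 and 8.27 at 0 h, 8.21 and 7.93 at 1 h, 7.42 and 7.85 at 6 h, 7.24 and 7.54 at 24 h, and 8.52 and 8.50 at 72 h. Its change at 6 h did not pass in either tissue, at -0.45 ± 0.11 (adjusted p = 0.0695) in the jejunum and -0.67 ± 0.16 (adjusted p = 0.0874) in the colon, and in the colon it fell by 0.92 ± 0.16 (adjusted p = 0.0254) at 24 h.

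Of the 5 genes grouped here around anaphase, 3 fell in the jejunum and 4 in the colon at 6 h. The group also holds Cdca3, a gene of mitotic entry, and securin, an inhibitor of separase. Ube2c encodes the ubiquitin-conjugating enzyme of the anaphase-promoting complex. Jejunal Ube2c was 9.001 and 8.63 at 0 h, 8.80 and 8.38 at 1 h, 7.73 and 7.79 at 6 h, 7.88 and 8.80 at 24 h, and 9.61 and 9.59 at 72 h. Colonic Ube2c was 8.70 and 9.07 at 0 h, 8.41 and 8.01 at 1 h, 7.15 and 7.27 at 6 h, 7.41 and 7.34 at 24 h, and 9.18 and 8.81 at 72 h. It fell by 1.67 ± 0.17 (adjusted p = 0.00155) in the colon, where the groups were well apart, and its jejunal change of -1.06 ± 0.26 (adjusted p = 0.064) did not pass although the groups did not overlap. Pttg1 encodes securin, the inhibitor of separase. Jejunal Pttg1 was 8.90 and 8.66 at 0 h, 8.82 and 8.42 at 1 h, 7.63 and 7.66 at 6 h, 8.18 and 8.62 at 24 h, and 9.34 and 9.24 at 72 h. Colonic Pttg1 was 8.46 and 8.77 at 0 h, 8.56 and 8.23 at 1 h, 7.55 and 7.35 at 6 h, 7.67 and 7.54 at 24 h, and 8.56 and 8.49 at 72 h. It fell by 1.13 ± 0.17 (adjusted p = 0.0109) in the jejunum and by 1.16 ± 0.15 (adjusted p = 0.00419) in the colon.

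Cdc20 activates the anaphase-promoting complex. Jejunal Cdc20 was 8.55 and 8.34 at 0 h, 8.34 and 8.06 at 1 h, 7.43 and 7.63 at 6 h, 8.04 and 8.43 at 24 h, and 9.24 and 9.14 at 72 h. Colonic Cdc20 was 8.34 and 8.59 at 0 h, 8.25 and 8.10 at 1 h, 7.33 and 7.21 at 6 h, 7.08 and 7.49 at 24 h, and 8.56 and 8.47 at 72 h. It fell by 0.92 ± 0.15 (adjusted p = 0.0166) in the jejunum and by 1.19 ± 0.15 (adjusted p = 0.00369) in the colon. Cdc20 had 5 probe sets, and in the colon the other 4 were at -0.59, -0.22, -0.12 and 0.03 and did not pass, the last 2 on probe sets with means of 6.13 and 6.14. In the jejunum its change at 6 h ran from -1.02 to -0.37 over the other settings, which include an average of the probe sets. At 72 h there it ran from 0.33 to 0.85. Cdca3 encodes a protein that promotes entry into mitosis. Jejunal Cdca3 was 9.19 and 9.09 at 0 h, 9.17 and 9.06 at 1 h, 8.24 and 8.33 at 6 h, 9.15 and 8.73 at 24 h, and 9.56 and 9.32 at 72 h. Colonic Cdca3 was 9.11 and 9.18 at 0 h, 8.84 and 8.71 at 1 h, 7.75 and 7.91 at 6 h, 8.004 and 8.09 at 24 h, and 8.96 and 8.88 at 72 h. It fell by 0.85 ± 0.14 (adjusted p = 0.0172) in the jejunum and by 1.31 ± 0.10 (adjusted p = 0.000522) in the colon. Espl1 encodes separase, which cuts cohesin. Jejunal Espl1 was 7.09 and 7.00 at 0 h, 7.13 and 7.14 at 1 h, 6.86 and 7.01 at 6 h, 7.37 and 7.19 at 24 h, and 7.71 and 7.62 at 72 h. Colonic Espl1 was 8.26 and 8.34 at 0 h, 8.29 and 7.75 at 1 h, 7.83 and 7.95 at 6 h, 7.20 and 8.54 at 24 h, and 8.33 and 8.02 at 72 h. Espl1 did not pass at 6 h in either tissue, at -0.11 ± 0.09 (adjusted p = 0.546) in the jejunum, where the pairs overlapped, and -0.41 ± 0.34 (adjusted p = 0.605) in the colon. Its colonic 24 h arrays lay far apart. It rose by 0.62 ± 0.09 (adjusted p = 0.00329) in the jejunum at 72 h.

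At the kinetochore, the site where chromosomes bind spindle fibres, 4 of 5 genes fell in the jejunum and 3 of 5 in the colon at 6 h. Cenpf encodes a large protein of the outer kinetochore. Jejunal Cenpf was 8.34 and 8.29 at 0 h, 8.30 and 8.34 at 1 h, 7.73 and 7.60 at 6 h, 8.56 and 8.27 at 24 h, and 8.80 and 8.82 at 72 h. Colonic Cenpf was 9.27 and 9.29 at 0 h, 8.57 and 8.68 at 1 h, 7.24 and 7.56 at 6 h, 8.03 and 7.76 at 24 h, and 8.78 and 8.95 at 72 h. Cenpf fell by 0.65 ± 0.10 (adjusted p = 0.0156) in the jejunum and by 1.88 ± 0.14 (adjusted p = 0.000507) in the colon, where the untreated arrays were also higher than in the jejunum. Nuf2 encodes a subunit of the microtubule-binding NDC80 complex. Jejunal Nuf2 was 8.62 and 8.48 at 0 h, 8.50 and 8.47 at 1 h, 7.61 and 7.74 at 6 h, 8.16 and 8.35 at 24 h, and 8.94 and 9.01 at 72 h. Colonic Nuf2 was 8.33 and 8.46 at 0 h, 8.21 and 8.13 at 1 h, 7.38 and 7.47 at 6 h, 7.30 and 7.61 at 24 h, and 8.65 and 8.48 at 72 h. Spc25 encodes another subunit of that complex. Jejunal Spc25 was 8.56 and 8.41 at 0 h, 8.42 and 8.46 at 1 h, 7.85 and 8.07 at 6 h, 8.26 and 8.06 at 24 h, and 8.93 and 8.73 at 72 h. Colonic Spc25 was 8.39 and 8.32 at 0 h, 8.16 and 8.06 at 1 h, 7.35 and 7.49 at 6 h, 7.36 and 7.498 at 24 h, and 8.41 and 8.48 at 72 h. Nuf2 fell by 0.88 ± 0.09 (adjusted p = 0.00471) in the jejunum and by 0.97 ± 0.13 (adjusted p = 0.00493) in the colon, and Spc25 fell by 0.53 ± 0.11 (adjusted p = 0.0424) and by 0.93 ± 0.10 (adjusted p = 0.00239) in the same tissues.

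Cenpe encodes a kinesin of the kinetochore. Jejunal Cenpe was 6.96 and 6.96 at 0 h, 6.92 and 6.81 at 1 h, 6.52 and 6.54 at 6 h, 6.73 and 6.85 at 24 h, and 7.33 and 7.42 at 72 h. Colonic Cenpe was 6.89 and 7.01 at 0 h, 6.98 and 6.79 at 1 h, 6.45 and 6.21 at 6 h, 6.47 and 6.30 at 24 h, and 7.19 and 7.00 at 72 h. It fell by 0.43 ± 0.08 (adjusted p = 0.0266) in the jejunum, and the colon change of -0.62 ± 0.13 (adjusted p = 0.051) did not pass, although the groups did not overlap. Cenpa encodes the histone H3 variant of centromeres. Jejunal Cenpa was 5.98 and 5.98 at 0 h, 5.90 and 5.81 at 1 h, 5.86 and 5.89 at 6 h, 5.92 and 5.85 at 24 h, and 5.96 and 5.84 at 72 h. Colonic Cenpa was 5.87 and 6.05 at 0 h, 5.58 and 6.08 at 1 h, 5.72 and 5.75 at 6 h, 5.79 and 5.73 at 24 h, and 5.86 and 5.84 at 72 h. Cenpa passed in none of the comparisons with 0 h, with changes of -0.10 ± 0.08 (adjusted p = 0.502) in the jejunum and -0.23 ± 0.15 (adjusted p = 0.515) in the colon. Its probe set was the dimmest of the 43, with a mean of 5.83 over the arrays, and Bub1b, Cenpe and Depdc1 were also below the median of 7.03 over all probe sets.

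All 3 measured genes of the chromosomal passenger complex, which corrects attachments and later guides cytokinesis, fell at 6 h in both tissues and rose in the jejunum at 72 h. Aurkb encodes its kinase. Jejunal Aurkb was 7.95 and 7.81 at 0 h, 7.91 and 7.84 at 1 h, 7.32 and 7.36 at 6 h, 7.42 and 7.63 at 24 h, and 8.37 and 8.22 at 72 h. Colonic Aurkb was 7.61 and 7.94 at 0 h, 7.73 and 7.59 at 1 h, 6.99 and 7.11 at 6 h, 6.72 and 6.81 at 24 h, and 7.93 and 7.86 at 72 h. It fell by 0.54 ± 0.10 (adjusted p = 0.0238) in the jejunum and by 0.72 ± 0.13 (adjusted p = 0.0241) in the colon. Birc5 encodes survivin. Jejunal Birc5 was 7.74 and 7.68 at 0 h, 7.55 and 7.54 at 1 h, 7.14 and 6.98 at 6 h, 7.52 and 7.61 at 24 h, and 8.27 and 8.16 at 72 h. Colonic Birc5 was 7.51 and 7.57 at 0 h, 7.52 and 7.39 at 1 h, 6.67 and 6.77 at 6 h, 6.98 and 6.60 at 24 h, and 7.37 and 7.56 at 72 h. It fell by 0.64 ± 0.09 (adjusted p = 0.00873) in the jejunum and by 0.82 ± 0.14 (adjusted p = 0.0199) in the colon. Cdca8 encodes borealin. Jejunal Cdca8 was 7.95 and 7.77 at 0 h, 7.45 and 7.47 at 1 h, 7.08 and 7.23 at 6 h, 7.42 and 7.54 at 24 h, and 8.30 and 8.25 at 72 h. Colonic Cdca8 was 7.68 and 7.91 at 0 h, 7.41 and 7.17 at 1 h, 6.89 and 6.80 at 6 h, 6.94 and 7.12 at 24 h, and 7.78 and 7.76 at 72 h. It fell by 0.70 ± 0.09 (adjusted p = 0.00869) in the jejunum and by 0.95 ± 0.13 (adjusted p = 0.00527) in the colon, with no overlap between the pairs.

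Of the 9 spindle motors and microtubule proteins 5 fell in the jejunum at 6 h, 8 fell in the colon, and 8 rose in the jejunum at 72 h. Knstrn encodes a partner of astrin at the spindle and kinetochore. Jejunal Knstrn was 8.41 and 8.37 at 0 h, 8.42 and 8.40 at 1 h, 7.42 and 7.59 at 6 h, 8.36 and 8.14 at 24 h, and 8.91 and 8.87 at 72 h. Colonic Knstrn was 8.76 and 8.82 at 0 h, 8.47 and 8.54 at 1 h, 7.15 and 7.34 at 6 h, 7.69 and 7.53 at 24 h, and 8.53 and 8.72 at 72 h. Knstrn fell by 0.88 ± 0.10 (adjusted p = 0.00471) in the jejunum and by 1.55 ± 0.12 (adjusted p = 0.000507) in the colon. Nusap1 bundles spindle microtubules. Jejunal Nusap1 was 8.90 and 8.60 at 0 h, 8.79 and 8.71 at 1 h, 7.67 and 7.84 at 6 h, 8.09 and 8.52 at 24 h, and 8.82 and 8.85 at 72 h. Colonic Nusap1 was 9.05 and 9.14 at 0 h, 8.92 and 8.63 at 1 h, 7.23 and 7.65 at 6 h, 7.53 and 7.75 at 24 h, and 8.83 and 8.94 at 72 h. It fell by 1.000 ± 0.15 (adjusted p = 0.0109) in the jejunum and by 1.65 ± 0.15 (adjusted p = 0.000985) in the colon, and at 72 h in the jejunum it was at 0.08 ± 0.15 (adjusted p = 0.702) from 0 h, with overlapping pairs. Aspm encodes a protein of spindle poles. Jejunal Aspm was 7.47 and 7.24 at 0 h, 7.32 and 7.41 at 1 h, 6.79 and 6.71 at 6 h, 7.15 and 7.38 at 24 h, and 8.10 and 7.995 at 72 h. Colonic Aspm was 7.77 and 8.01 at 0 h, 7.23 and 7.35 at 1 h, 6.53 and 6.88 at 6 h, 6.46 and 6.75 at 24 h, and 7.61 and 7.75 at 72 h. Aspm fell by 0.60 ± 0.11 (adjusted p = 0.0237) in the jejunum, by 1.18 ± 0.15 (adjusted p = 0.00423) in the colon, and rose by 0.70 ± 0.11 (adjusted p = 0.00405) at 72 h in the jejunum.

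Kif23 encodes a motor of the central spindle. Jejunal Kif23 was 7.95 and 7.90 at 0 h, 7.92 and 7.89 at 1 h, 7.72 and 7.84 at 6 h, 8.17 and 7.92 at 24 h, and 8.996 and 8.99 at 72 h. Colonic Kif23 was 8.79 and 8.67 at 0 h, 8.47 and 8.75 at 1 h, 7.38 and 7.76 at 6 h, 8.19 and 7.99 at 24 h, and 8.96 and 8.66 at 72 h. In the jejunum it was at -0.15 ± 0.10 (adjusted p = 0.435) at 6 h and then rose by 1.07 ± 0.10 (adjusted p = 0.000607) at 72 h, and in the colon it fell by 1.16 ± 0.16 (adjusted p = 0.00772) at 6 h. A second, dimmer Kif23 probe set with a mean of 6.55 was at -0.13 in the colon at 6 h. Kif20a encodes another central spindle kinesin. Jejunal Kif20a was 7.79 and 7.46 at 0 h, 7.60 and 7.45 at 1 h, 6.81 and 7.05 at 6 h, 7.43 and 7.83 at 24 h, and 8.37 and 8.51 at 72 h. Colonic Kif20a was 8.09 and 8.12 at 0 h, 7.79 and 7.51 at 1 h, 6.97 and 6.79 at 6 h, 6.80 and 6.89 at 24 h, and 8.12 and 7.93 at 72 h. It fell by 0.69 ± 0.16 (adjusted p = 0.0498) in the jejunum and by 1.23 ± 0.12 (adjusted p = 0.00155) in the colon. Dlgap5 encodes a protein that stabilises fibres near chromosomes. Jejunal Dlgap5 was 7.92 and 7.78 at 0 h, 7.88 and 8.13 at 1 h, 7.51 and 7.45 at 6 h, 7.91 and 7.99 at 24 h, and 8.47 and 8.37 at 72 h. Colonic Dlgap5 was 8.60 and 8.52 at 0 h, 8.18 and 8.21 at 1 h, 7.57 and 7.63 at 6 h, 7.79 and 7.69 at 24 h, and 8.33 and 8.48 at 72 h. Dlgap5 was at -0.37 ± 0.10 (adjusted p = 0.0853) in the jejunum, where it missed the threshold, and fell by 0.96 ± 0.10 (adjusted p = 0.00166) in the colon. The other 3 were Kif11, the motor that pushes spindle poles apart, Prc1, which bundles the central spindle, and Kif2c, which shortens microtubules. Over the 10 arrays of a tissue Kif11 ranged over 7.57 to 8.58 (jejunum) and 6.95 to 8.31 (colon), Prc1 over 8.18 to 9.53 and 7.496 to 9.04, and Kif2c over 6.82 to 7.79 and 7.30 to 8.10. Kif11 fell by 0.52 ± 0.12 (adjusted p = 0.0493) in the jejunum and by 1.12 ± 0.13 (adjusted p = 0.00239) in the colon, Prc1 fell by 0.96 ± 0.14 (adjusted p = 0.00868) in the colon and was at -0.55 ± 0.14 (adjusted p = 0.061) in the jejunum, and Kif2c passed in neither, at -0.33 ± 0.12 (adjusted p = 0.165) and -0.57 ± 0.14 (adjusted p = 0.0925).

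Of the 4 genes of chromosome structure 1 fell in the jejunum and 3 in the colon at 6 h. Top2a encodes the topoisomerase that untangles sister chromatids. Jejunal Top2a was 9.21 and 9.12 at 0 h, 8.97 and 9.14 at 1 h, 8.24 and 8.41 at 6 h, 9.08 and 8.91 at 24 h, and 9.73 and 9.60 at 72 h. Colonic Top2a was 9.48 and 9.60 at 0 h, 9.002 and 9.001 at 1 h, 7.80 and 8.02 at 6 h, 7.99 and 8.29 at 24 h, and 9.30 and 9.50 at 72 h. Top2a fell by 0.84 ± 0.11 (adjusted p = 0.0067) in the jejunum and by 1.63 ± 0.13 (adjusted p = 0.000568) in the colon. Mki67 encodes the proliferation antigen that coats mitotic chromosomes. Jejunal Mki67 was 9.48 and 9.26 at 0 h, 9.27 and 9.68 at 1 h, 8.69 and 8.72 at 6 h, 9.74 and 8.79 at 24 h, and 9.79 and 9.83 at 72 h. Colonic Mki67 was 9.73 and 9.66 at 0 h, 9.08 and 9.40 at 1 h, 8.13 and 8.47 at 6 h, 8.24 and 8.23 at 24 h, and 9.34 and 9.58 at 72 h. Mki67 fell by 1.40 ± 0.15 (adjusted p = 0.00166) in the colon, while the jejunal change was -0.67 ± 0.26 (adjusted p = 0.196). Smc2 encodes a condensin subunit. Jejunal Smc2 was 7.40 and 7.28 at 0 h, 7.33 and 7.48 at 1 h, 6.99 and 7.17 at 6 h, 7.47 and 7.22 at 24 h, and 8.40 and 8.22 at 72 h. Colonic Smc2 was 8.04 and 8.09 at 0 h, 7.64 and 7.78 at 1 h, 7.07 and 7.88 at 6 h, 6.77 and 7.15 at 24 h, and 8.08 and 8.25 at 72 h. Smc2 passed at 6 h in neither tissue, at -0.26 ± 0.12 (adjusted p = 0.266) in the jejunum and -0.59 ± 0.22 (adjusted p = 0.278) in the colon, but rose by 0.97 ± 0.12 (adjusted p = 0.00149) in the jejunum at 72 h. Ncaph encodes another condensin subunit. Jejunal Ncaph was 9.04 and 8.96 at 0 h, 8.90 and 8.97 at 1 h, 8.74 and 8.84 at 6 h, 9.10 and 8.82 at 24 h, and 9.13 and 9.34 at 72 h. Colonic Ncaph was 9.12 and 9.09 at 0 h, 8.81 and 8.88 at 1 h, 8.36 and 8.55 at 6 h, 8.30 and 8.30 at 24 h, and 8.94 and 8.81 at 72 h. It fell by 0.65 ± 0.10 (adjusted p = 0.017) in the colon and was at -0.21 ± 0.11 (adjusted p = 0.339) in the jejunum.

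Of the 3 genes grouped here under cytokinesis, 1 fell in the jejunum and 3 in the colon at 6 h. All 3 rose in the jejunum at 72 h. For Depdc1, listed with this group, no role in cleavage is given here. Ect2 encodes a protein needed for the cell to cleave. Jejunal Ect2 was 8.90 and 8.74 at 0 h, 8.62 and 8.73 at 1 h, 8.02 and 8.20 at 6 h, 9.04 and 8.63 at 24 h, and 9.76 and 9.70 at 72 h. Colonic Ect2 was 9.38 and 9.26 at 0 h, 8.86 and 8.97 at 1 h, 7.49 and 7.95 at 6 h, 7.91 and 8.10 at 24 h, and 9.30 and 9.14 at 72 h. It fell by 0.71 ± 0.14 (adjusted p = 0.0273) in the jejunum and by 1.60 ± 0.15 (adjusted p = 0.000985) in the colon. Racgap1 binds Kif23 and recruits Ect2. Jejunal Racgap1 was 8.68 and 8.60 at 0 h, 8.43 and 8.67 at 1 h, 7.86 and 7.89 at 6 h, 8.81 and 8.14 at 24 h, and 9.31 and 9.19 at 72 h. Colonic Racgap1 was 9.13 and 9.31 at 0 h, 8.79 and 8.98 at 1 h, 7.65 and 7.98 at 6 h, 7.99 and 7.92 at 24 h, and 9.06 and 9.03 at 72 h. Racgap1 fell by 1.41 ± 0.13 (adjusted p = 0.000985) in the colon and was at -0.77 ± 0.18 (adjusted p = 0.0574) in the jejunum, where a second probe set passed, having fallen by 0.58 ± 0.09 (adjusted p = 0.0163). Depdc1 was 7.28 and 7.25 at 0 h, 7.15 and 7.31 at 1 h, 6.76 and 6.76 at 6 h, 7.52 and 6.91 at 24 h, and 7.93 and 7.97 at 72 h in the jejunum. Colonic Depdc1 was 7.87 and 7.70 at 0 h, 7.23 and 7.23 at 1 h, 6.50 and 6.62 at 6 h, 6.48 and 6.30 at 24 h, and 7.63 and 7.69 at 72 h. It fell by 1.22 ± 0.11 (adjusted p = 0.00085) in the colon, and its jejunal change was -0.51 ± 0.16 (adjusted p = 0.134).

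**Figure D3:**
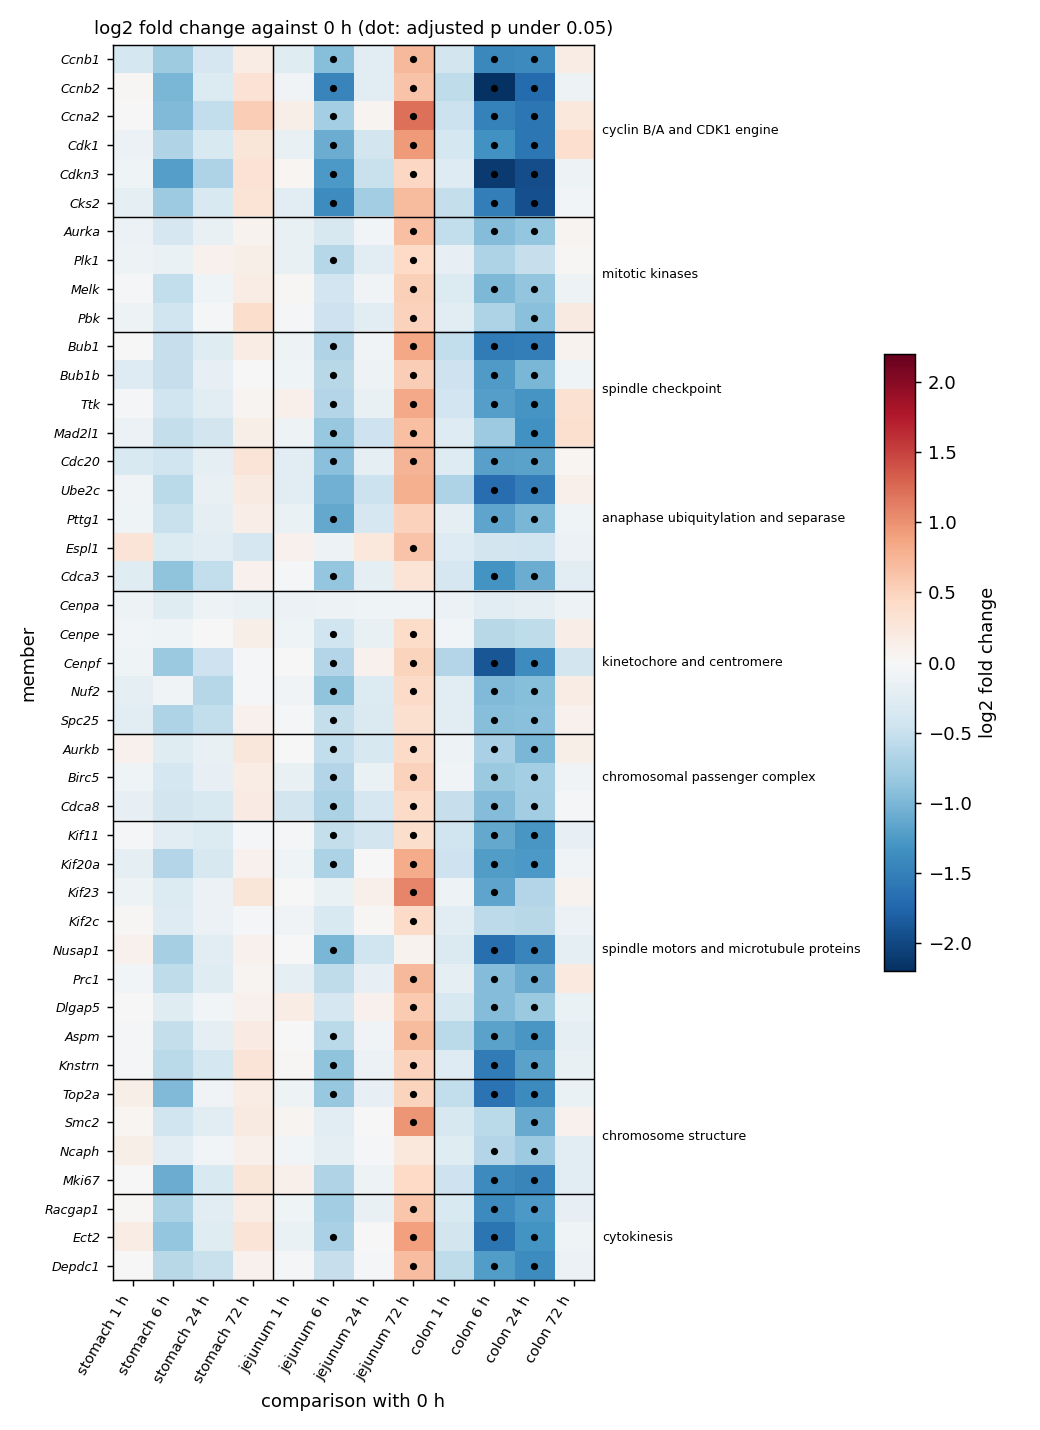
Log2 fold change against 0 h of each of the 43 mitosis genes (rows, grouped by role) at 1, 6, 24 and 72 h in stomach, jejunum and colon (columns); a dot marks an adjusted p under 0.05 in limma. Dots stand in 28 jejunum 6 h cells, 34 jejunum 72 h cells, 35 colon 6 h cells and 37 colon 24 h cells, and in none of the stomach columns.

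The calls at 6 h depended on single arrays in the jejunum more than in the colon. Leaving out untreated jejunum replicate 1 or 2 left 1 and 3 genes at 6 h, and leaving out jejunum 6 h replicate 1 or 2 left 1 and 1, while all probe sets passing fell to between 18 and 55, against 1082 in either direction with all arrays. The median stayed between -0.72 and -0.58 in these fits, and Cdkn3 was the gene that passed in every one of them. Both 6 h arrays lay below both untreated arrays for 42 of 43 genes, against 33.3% of all probe sets. In the colon 31 and 23 genes passed without untreated replicate 1 or 2, and 25 and 33 without 6 h replicate 1 or 2, with medians between -1.17 and -1.13. Of the 35 genes 22 passed each time, among them Ccnb1, Ccnb2, Cdkn3, Cks2, Bub1, Cenpf and Top2a. Colon 6 h replicate 1, the array with pancreatic transcripts, was the lower of its pair in 36 of 43 genes, and without it 25 genes passed.

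At 6 h 25 genes fell in both the jejunum and the colon, which is 89.3% of the 28 in the jejunum and 71.4% of the 35 in the colon. Plk1, Mad2l1 and Cenpe passed in the jejunum and not in the colon, and Pbk, Espl1, Cenpa, Kif2c and Smc2 in neither. Over the 43 genes the fold changes at 6 h correlated at 0.75 between jejunum and colon and 0.79 between colon and stomach (Pearson), against 0.14 and 0.50 over all probe sets. These tissues came from the same rats, genes are not independent, and the correlations are descriptions.

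In the stomach 41 of 43 genes had both 6 h arrays below both 0 h arrays, against 21.6% of all probe sets, but none passed with limma. Stomach Ccnb2 was 8.24 and 8.22 at 0 h, 8.26 and 8.25 at 1 h, 6.98 and 7.48 at 6 h, 7.72 and 8.15 at 24 h, and 8.77 and 8.34 at 72 h, with a change at 6 h of -1.003 ± 0.21 (adjusted p = 0.181). Stomach Cdkn3 was 8.65 and 8.59 at 0 h, 8.35 and 8.69 at 1 h, 7.14 and 7.68 at 6 h, 7.49 and 8.39 at 24 h, and 9.14 and 8.73 at 72 h, with a change at 6 h of -1.21 ± 0.30 (adjusted p = 0.263). Stomach Ccnb1 was 8.14 and 8.01 at 0 h, 7.70 and 7.68 at 1 h, 7.28 and 7.30 at 6 h, 7.59 and 7.82 at 24 h, and 8.63 and 7.84 at 72 h. These 3 members of the cyclin group did not overlap between 6 h and 0 h, and the larger spread at 6 h was that of Cdkn3. Stomach Knstrn was 7.55 and 7.71 at 0 h, 7.53 and 7.68 at 1 h, 7.02 and 7.04 at 6 h, 7.24 and 7.25 at 24 h, and 7.99 and 7.85 at 72 h, with a change at 6 h of -0.59 ± 0.10 (adjusted p = 0.122), the smallest adjusted p of the list there. Stomach Kif20a was 7.42 and 7.47 at 0 h, 7.30 and 7.18 at 1 h, 6.79 and 6.81 at 6 h, 7.04 and 7.12 at 24 h, and 7.73 and 7.36 at 72 h. Stomach Nusap1 was 8.40 and 8.38 at 0 h, 8.46 and 8.53 at 1 h, 7.53 and 7.77 at 6 h, 8.08 and 8.20 at 24 h, and 8.69 and 8.27 at 72 h. Again the 6 h pairs lay below the 0 h pairs, and the 3 changes ran from -0.74 to -0.59.

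Stomach Ube2c was 8.21 and 7.98 at 0 h, 7.97 and 8.04 at 1 h, 7.41 and 7.58 at 6 h, 7.72 and 8.14 at 24 h, and 8.44 and 8.16 at 72 h. Stomach Cdca3 was 8.75 and 8.20 at 0 h, 8.26 and 8.17 at 1 h, 7.42 and 7.75 at 6 h, 7.78 and 8.08 at 24 h, and 8.99 and 8.16 at 72 h. Stomach Pttg1 was 8.30 and 8.32 at 0 h, 8.18 and 8.25 at 1 h, 7.83 and 7.81 at 6 h, 7.91 and 8.29 at 24 h, and 8.67 and 8.25 at 72 h. The median of the 5 anaphase genes was -0.49, against -0.53 for the list, and the 6 h pairs lay below the 0 h pairs. Stomach Cdca8 was 7.04 and 6.95 at 0 h, 6.74 and 6.87 at 1 h, 6.58 and 6.62 at 6 h, 6.58 and 6.76 at 24 h, and 7.28 and 7.05 at 72 h. Stomach Birc5 was 7.24 and 7.10 at 0 h, 7.04 and 7.12 at 1 h, 6.80 and 6.78 at 6 h, 6.86 and 7.13 at 24 h, and 7.52 and 7.13 at 72 h. Stomach Aurkb was 7.31 and 7.30 at 0 h, 7.38 and 7.41 at 1 h, 6.96 and 7.12 at 6 h, 7.02 and 7.28 at 24 h, and 7.84 and 7.26 at 72 h. These passenger complex genes had a median of -0.38 at 6 h, without overlap. Stomach Top2a was 8.38 and 8.20 at 0 h, 8.43 and 8.41 at 1 h, 7.01 and 7.65 at 6 h, 8.28 and 8.15 at 24 h, and 8.91 and 8.004 at 72 h. Stomach Mki67 was 8.30 and 8.12 at 0 h, 8.19 and 8.23 at 1 h, 6.88 and 7.35 at 6 h, 8.13 and 7.64 at 24 h, and 9.12 and 7.82 at 72 h. Stomach Smc2 was 7.21 and 7.08 at 0 h, 7.19 and 7.19 at 1 h, 6.50 and 6.89 at 6 h, 6.96 and 6.83 at 24 h, and 7.71 and 6.96 at 72 h. The 6 h pairs lay below the 0 h pairs, and the change of Mki67 was -1.10 ± 0.37 (adjusted p = 0.427).

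Stomach Cenpf was 8.09 and 7.88 at 0 h, 7.89 and 7.89 at 1 h, 7.07 and 7.26 at 6 h, 7.51 and 7.55 at 24 h, and 8.45 and 7.47 at 72 h. Stomach Spc25 was 8.09 and 7.92 at 0 h, 7.60 and 7.96 at 1 h, 7.08 and 7.57 at 6 h, 7.26 and 7.68 at 24 h, and 8.35 and 7.85 at 72 h. Stomach Cenpa was 5.97 and 5.80 at 0 h, 5.80 and 5.72 at 1 h, 5.58 and 5.66 at 6 h, 5.72 and 5.83 at 24 h, and 5.90 and 5.58 at 72 h. Kinetochore genes had a median of -0.26, and Nuf2 and Cenpe were at -0.08 and -0.10. Stomach Mad2l1 was 7.72 and 7.61 at 0 h, 7.33 and 7.74 at 1 h, 7.05 and 7.23 at 6 h, 7.14 and 7.37 at 24 h, and 8.04 and 7.54 at 72 h. Stomach Ttk was 7.23 and 7.12 at 0 h, 7.06 and 7.23 at 1 h, 6.81 and 6.67 at 6 h, 7.01 and 6.87 at 24 h, and 7.499 and 6.96 at 72 h. Stomach Bub1b was 6.92 and 6.69 at 0 h, 6.46 and 6.58 at 1 h, 6.30 and 6.30 at 6 h, 6.68 and 6.58 at 24 h, and 7.16 and 6.44 at 72 h. The checkpoint genes did not overlap between 6 h and 0 h, with a median of -0.51. Stomach Melk was 7.70 and 7.88 at 0 h, 7.86 and 7.68 at 1 h, 7.29 and 7.21 at 6 h, 7.62 and 7.78 at 24 h, and 8.33 and 7.57 at 72 h. Stomach Aurka was 7.19 and 7.17 at 0 h, 7.01 and 7.08 at 1 h, 6.71 and 6.91 at 6 h, 6.86 and 7.18 at 24 h, and 7.503 and 7.01 at 72 h. Stomach Pbk was 7.44 and 7.46 at 0 h, 7.22 and 7.44 at 1 h, 6.83 and 7.20 at 6 h, 7.22 and 7.64 at 24 h, and 8.15 and 7.53 at 72 h. The 4 kinases had a median of -0.40 at 6 h, without overlap. Stomach Ect2 was 8.13 and 7.59 at 0 h, 7.92 and 8.15 at 1 h, 6.71 and 7.31 at 6 h, 7.70 and 7.47 at 24 h, and 8.83 and 7.46 at 72 h. Stomach Depdc1 was 6.85 and 6.58 at 0 h, 6.59 and 6.82 at 1 h, 5.90 and 6.32 at 6 h, 6.20 and 6.27 at 24 h, and 7.31 and 6.32 at 72 h. Stomach Racgap1 was 8.09 and 7.85 at 0 h, 7.96 and 8.05 at 1 h, 7.03 and 7.52 at 6 h, 7.72 and 7.77 at 24 h, and 8.78 and 7.49 at 72 h. For the cytokinesis genes the 6 h replicate 1 was the lower array each time, as it was for 36 of the 43 genes.

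Other settings called a few of these stomach genes at 6 h: 2 without stomach 72 h replicate 1, 3 with array weights and 8 in 1 fit of all 30 arrays. At 24 h 0 of 43 passed in the stomach with limma (0.0161% of all probe sets, 3 genes at an unadjusted p under 0.05), and the median was -0.25. From 6 to 24 h the median change was 0.24 and 0 passed (0% of all probe sets, 4 at an unadjusted p under 0.05). At 72 h 0 passed (1 at an unadjusted p under 0.05). There the array with pancreatic transcripts, replicate 1, was above replicate 2 for 43 of 43 genes, by 0.14 to 1.37, and the median against 0 h was 0.16 with both arrays, 0.41 with replicate 1 alone and -0.17 with replicate 2 alone. Jejunal markers were at 9.91 in replicate 1 and 8.12 in replicate 2, against 6.96 and 6.94 at 0 h. Squamous epithelium markers (5 genes, median per array) were at 7.82 in replicate 1 and 11.24 in replicate 2, and ranged from 7.26 to 11.24 over the stomach arrays, with 7.26 and 9.87 at 0 h. The part of these markers in the stomach values was not tested. Of all 31042 probe sets 2589 (24 h), 1952 (24 h against 6 h), 2346 (72 h) and 4653 (72 h against 24 h) had an unadjusted p under 0.05 in the stomach. From 24 to 72 h 0 passed (0.00322% of all probe sets, 13 at an unadjusted p under 0.05), with a median of 0.40 with all arrays and 0.06 without replicate 1 of 72 h. Without replicate 2 of 72 h, 5 genes passed there.

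At 24 h mitosis genes stood near the untreated level in the jejunum and well below it in the colon. In the jejunum 0 of 43 genes passed against 0 h with limma (0.409% of all probe sets), and the median was -0.17. There 11 genes and 4966 of 31042 probe sets had an unadjusted p under 0.05. Against 6 h 10 had risen (0.441% of all probe sets): Ccnb2, Knstrn, Cenpf, Cdkn3, Top2a, Ccna2, Nuf2, Bub1, Birc5 and Ect2, on the same 6 h arrays as the falls. Ccnb2 rose by 1.21 ± 0.15 (adjusted p = 0.014) and Knstrn rose by 0.75 ± 0.10 (adjusted p = 0.0162). The count against 6 h was 0 without either 6 h array, and 23 and 20 when 24 h replicate 1 or 2 was left out. In the colon 37 genes were still below 0 h, and 0 passed against 6 h with limma (0.564% of all probe sets), with a median change of 0.03. Between these times 8 genes and 3232 of 31042 probe sets had an unadjusted p under 0.05. The colon count against 0 h was 27 and 0 without untreated replicate 1 or 2, and 32 and 38 without 24 h replicate 1 or 2. Without untreated colon replicate 2 no probe set of any gene passed, and the list's median stayed between -1.25 and -1.06 in these 4 fits. Smooth muscle markers (median per array) were at 12.91 and 12.78 in the colon at 24 h, against 12.21 and 12.08 at 0 h. Of the 7 markers 1 rose (0.29% of all probe sets). Jejunal markers (5 genes, median per array) were at 8.31 and 10.31 at 24 h, the higher value in replicate 2, against 7.32 and 8.71 at 0 h, and 0 of 5 passed with limma (3 at an unadjusted p under 0.05). Their part in the colon falls at 24 h was not tested beyond the counts above without either array.

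The 2 jejunal arrays of 24 h differed in both directions. Replicate 1, whose GAPDH signal leaned to the 3′ end, was the higher for 21 genes and the lower for 22, with differences from -0.92 to 0.95. It was the lower for Ube2c (7.88 against 8.80 in replicate 2), Cks2 (8.50 against 9.26), Cdk1 (8.51 against 9.14) and Ccnb1 (8.25 against 8.78). It was the higher for Mki67 (9.74 against 8.79), Racgap1 (8.81 against 8.14), Depdc1 (7.52 against 6.91) and Melk (8.66 against 8.20). Smooth muscle genes (7 genes, median per array) were also higher in replicate 1, at 11.66 against 10.79. The part of either in these differences was not tested. Without replicate 1, 1 gene passed against 0 h in the jejunum, and without replicate 2, 12 did.

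By 72 h jejunal levels exceeded those of untreated rats. The 34 genes that rose did so by 0.39 to 1.21, that is by up to 2.31-fold, and the median over all 43 was 0.55. Ccna2, Kif23, Smc2, Cdk1 and Ect2 rose most, each read from its brightest probe set. Kif23 had 2 probe sets, and its rise ran from 0.72 to 1.09 over the other settings, which include an average of both. Kif23 stood at 8.996 and 8.99 at 72 h, against 7.95 and 7.90 at 0 h, and Smc2 at 8.40 and 8.22 at 72 h, against 7.40 and 7.28 at 0 h. Neither pair overlapped, and both 72 h arrays lay above both untreated arrays for 41 of 43 genes, against 29.7% of all probe sets. Rises were spread over the roles: 5 of 6 cyclin and CDK1 genes, 4 of 4 kinases, 4 of 4 checkpoint genes, 2 of 5 anaphase genes, 3 of 5 kinetochore genes, 3 of 3 passenger genes, 8 of 9 spindle genes, 2 of 4 chromosome genes and 3 of 3 cytokinesis genes. Those that did not pass were Cks2, Ube2c, Pttg1 and Spc25, with adjusted p from 0.0525 to 0.0575, and Cdca3, Ncaph, Mki67, Nusap1 and Cenpa. Beside these rises, 3 of 7 smooth muscle genes rose too (11.9% of all probe sets). Their median per array was 11.30 and 11.55 at 72 h, against 10.12 and 10.29 at 0 h. The 7 epithelial markers had a median change of -0.03, and 1 of them rose and 1 fell. The part of tissue makeup in the rise was not tested.

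The count at 72 h against 0 h was 22 and 9 without untreated replicate 1 or 2, and 12 and 17 without 72 h replicate 1 or 2, with medians between 0.49 and 0.63. After quantile normalization of the deposited values it was 21. Ccna2, Aurka, Bub1, Ttk, Kif23, Aspm, Smc2 and Ect2 passed under every setting tried. Untreated jejunum replicate 1 was above replicate 2 for 43 of 43 genes, by 0.00 to 0.51. Against 24 h 39 genes rose in the jejunum at 72 h (8.77% of all probe sets), with a median of 0.77. The group means of this comparison share no array with the fall at 6 h, but both use 1 estimate of the spread. Leaving out 24 h replicate 1 or 2 gave 41 and 36, and leaving out 72 h replicate 1 or 2 gave 21 and 26. All 28 genes that fell in the jejunum at 6 h were among the 39, which is 71.8% of the 39. With 39 of 43 called, a large overlap was near fixed in advance. Across the 43 genes the fall at 6 h and the rise between 24 and 72 h correlated at -0.59 (Pearson), over different arrays and different rats, and at -0.13 over all probe sets.

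In the colon the 72 h arrays were close to the untreated ones. Against 0 h 0 of 43 passed with limma (2 genes and 5337 of 31042 probe sets at an unadjusted p under 0.05), with a median of -0.08 and changes from -0.41 to 0.37. Against 24 h 39 rose (4.4% of all probe sets), by a median of 1.11. Cdk1 stood at 9.96 and 9.56 at 72 h, against 7.47 and 8.11 at 24 h, and rose by 1.97 ± 0.23 (adjusted p = 0.00301). Cks2 stood at 10.04 and 9.84 at 72 h, against 7.89 and 8.23 at 24 h, and rose by 1.88 ± 0.15 (adjusted p = 0.0017). Neither gene's pairs overlapped. The count was 34 and 40 without 24 h replicate 1 or 2, and 34 and 39 without 72 h replicate 1 or 2. All 35 genes that had fallen at 6 h were among the 39 (89.7% of the 39). With 39 of 43 called and 1 shared estimate of the spread, this overlap too was near fixed in advance. Pancreatic transcripts were at 12.37 in 72 h replicate 2 and 6.00 in replicate 1, and replicate 1 was the higher for 26 of the 43 genes.

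**Figure D4:**
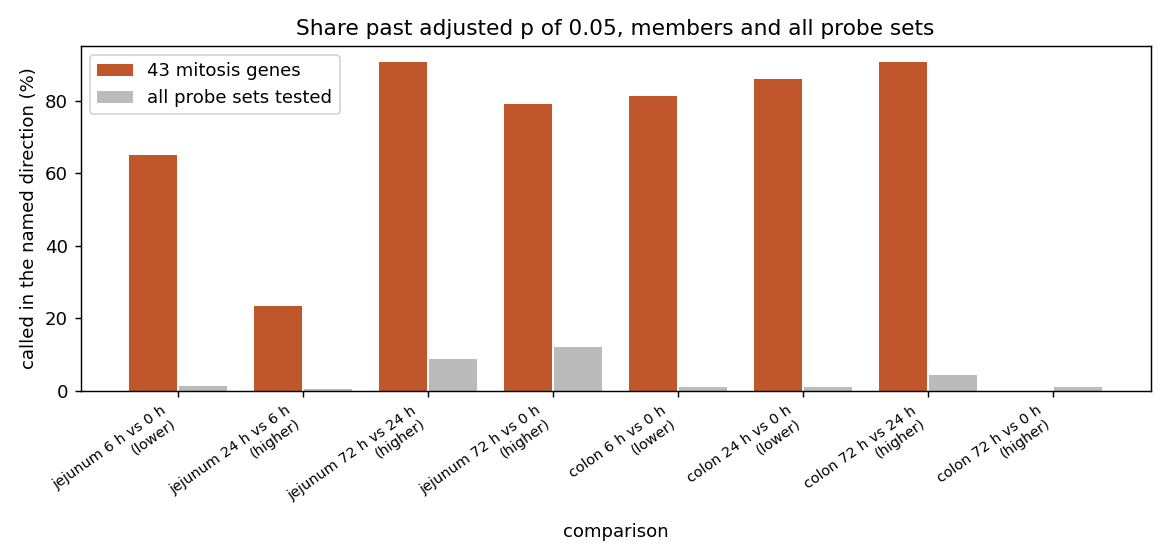
Share of the 43 mitosis genes (left bars) and of all 31042 probe sets (right bars) with an adjusted p under 0.05 in the direction named under each pair, for 8 comparisons within jejunum or colon. The mitosis genes stand between 65.1% and 90.7% in 6 comparisons, at 23.3% for jejunum 24 h against 6 h and at 0% for colon 72 h against 0 h, and the probe sets between 0.441% and 11.9%.

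The change in the jejunum was tested against the change in the colon directly, in 1 fit of all 30 arrays. At 24 h 5 genes had a higher response in the jejunum (0.122% of all probe sets): Knstrn by 1.05 ± 0.14 (adjusted p = 0.00335), Dlgap5 by 0.92 ± 0.15 (adjusted p = 0.0136), Kif20a by 1.27 ± 0.21 (adjusted p = 0.0151), Ttk by 1.14 ± 0.21 (adjusted p = 0.0352) and Cenpf by 1.48 ± 0.28 (adjusted p = 0.0352). All 43 differences were positive, with a median of 0.92, and 40 had an unadjusted p under 0.05, as had 4210 of 31042 probe sets. At 72 h 3 genes passed (0.535% of all probe sets): Dlgap5 by 0.72 ± 0.15 (adjusted p = 0.0302), Knstrn by 0.67 ± 0.14 (adjusted p = 0.0329) and Kif20a by 0.90 ± 0.21 (adjusted p = 0.0454), with a median of 0.60 over the list. At 6 h 1 gene passed (0.29% of all probe sets), Knstrn, whose jejunal response was the higher by 0.66 ± 0.14 (adjusted p = 0.0443), and the median was 0.53. For the other 42 genes the difference at 6 h did not pass. Arrays of different tissues share rats, which this fit leaves out.

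Knstrn shows the contrast in single values. It stood at 8.36 and 8.14 in the jejunum at 24 h, against 8.41 and 8.37 at 0 h, and at 7.69 and 7.53 in the colon at 24 h, against 8.76 and 8.82 at 0 h. The pairs overlapped in neither tissue, but the jejunal pairs lay near each other and the colonic pairs further apart. These counts moved with single arrays. The count at 24 h was 9 and 6 without jejunum 24 h replicate 1 or 2, 2 and 6 without colon 24 h replicate 1 or 2, 3 and 1 without untreated jejunum replicate 1 or 2, and 1 and 1 without untreated colon replicate 1 or 2. The count at 72 h was 2 without colon 72 h replicate 2 and 0 without any of the other 7 arrays. At 6 h it was 2 without colon 6 h replicate 2 and 0 without any of the other 7. Knstrn at 24 h passed under every setting.

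Against the stomach, the jejunal response did not differ past the threshold for any gene with limma: 0 at 6 h (0.11% of all probe sets, 5 genes at an unadjusted p under 0.05), 0 at 24 h (0.00322%, 0 at an unadjusted p under 0.05) and 0 at 72 h (2.75%, 10 at an unadjusted p under 0.05). Of all 31042 probe sets 3486, 3895 and 6035 had an unadjusted p under 0.05 at these times, so the 10 genes at 72 h were near the share of all probe sets. The medians were -0.07, 0.08 and 0.45. At 72 h the smallest adjusted p was that of Ttk, with a difference of 0.78 ± 0.21 (adjusted p = 0.0533). Without stomach 72 h replicate 1, the array with pancreatic transcripts, 16 genes passed at 72 h and the median was 0.75.

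Untreated tissues also differed. The untreated mean was highest in the colon for 33 genes and in the jejunum for 10, and lowest in the stomach for 41 and in the jejunum for Espl1 and Kif2c. Of the 43 genes 33 were higher in untreated colon than in untreated stomach (15.1% of all probe sets) and 23 were higher in untreated jejunum than in untreated stomach (14.9%). Mki67 stood at 9.73 and 9.66 in the colon and 9.48 and 9.26 in the jejunum, against 8.30 and 8.12 in the stomach. The gut arrays lay above the stomach arrays, by 1.48 ± 0.31 (adjusted p = 0.00126) for the colon and 1.16 ± 0.31 (adjusted p = 0.00723) for the jejunum. These levels were set on the same probe set, and they compare whole tissues. The count of genes higher in jejunum than in stomach was 17 and 11 without stomach replicate 1 or 2, and 10 and 17 without jejunum replicate 1 or 2.

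Between the 2 intestinal tissues 11 of 43 genes were lower in untreated jejunum than in untreated colon (19.9% of all probe sets): Dlgap5, Cenpf, Ttk, Kif2c, Espl1, Knstrn, Cdkn3, Kif20a, Smc2, Kif23 and Aspm. This count was near the share of all probe sets and does not set the list apart. Espl1 stood at 7.09 and 7.00 in the jejunum, against 8.26 and 8.34 in the colon. Cenpf stood at 8.34 and 8.29 in the jejunum, against 9.27 and 9.29 in the colon. Neither gene's pairs overlapped, and the differences were -1.26 ± 0.29 (adjusted p = 0.00186) for Espl1 and -0.96 ± 0.20 (adjusted p = 0.000738) for Cenpf. The same untreated arrays are the baseline of the response differences above. Knstrn, Dlgap5, Kif20a, Ttk and Cenpf, the genes that passed there, were all among these 11. The count was 7 and 10 without jejunum replicate 2 or 1, and 8 and 10 without colon replicate 2 or 1.

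Of 39 other genes that peak in G2 and mitosis, 8 fell in the jejunum at 6 h, against 1.19% of all probe sets. In the colon 16 fell at 6 h (0.986% of all probe sets) and 20 at 24 h (0.854%). In the jejunum at 72 h 23 rose (11.9%). The medians were, in this order, -0.31, -0.54, -0.66 and 0.39. Kif22, a chromosome-binding kinesin, fell by 0.87 ± 0.12 (adjusted p = 0.00873) in the jejunum and by 1.31 ± 0.11 (adjusted p = 0.000775) in the colon. Kif20b, a kinesin of the midbody, fell by 0.75 ± 0.11 (adjusted p = 0.0099) in the jejunum and by 1.32 ± 0.15 (adjusted p = 0.00284) in the colon. Jejunal Kif20b was 6.37 and 6.59 at 6 h, against 7.30 and 7.16 at 0 h. Colonic Kif20b was 6.20 and 6.41 at 6 h, against 7.57 and 7.69 at 0 h. The pairs did not overlap in either tissue.

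Core subunits of the machinery that are not listed for such a peak were read as well. Of 14 core subunits of the anaphase-promoting complex 1 fell in the jejunum at 6 h, Cdc26 by 0.45 ± 0.10 (adjusted p = 0.0468). Of all probe sets 1.19% fell there. In the colon 0 passed at 6 or 24 h with limma (0 and 1 at an unadjusted p under 0.05). Of all probe sets 1.19% and 1.14% passed there in either direction. In the jejunum at 72 h 6 rose (11.9% of all probe sets). Of 10 cohesin subunits and loaders 1 fell in the colon at 6 h (0.986% of all probe sets), Stag1 by 0.72 ± 0.11 (adjusted p = 0.0136). In the jejunum at 72 h 5 rose (11.9%) and 1 fell (12%), the loader Nipbl by 1.11 ± 0.26 (adjusted p = 0.0174). The medians at 6 h lay between -0.23 and 0.03 for both lists in jejunum and colon.

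Of 11 genes that control entry into mitosis, Cdkn1a, the CDK inhibitor p21, was the one that passed in the jejunum at 6 h. There 3.49% of all probe sets passed in either direction. Jejunal Cdkn1a was 8.89 and 9.07 at 0 h, 9.45 and 9.67 at 1 h, 9.90 and 9.89 at 6 h, 9.98 and 9.20 at 24 h, and 9.11 and 9.08 at 72 h. Colonic Cdkn1a was 9.36 and 8.88 at 0 h, 9.31 and 9.52 at 1 h, 9.61 and 9.11 at 6 h, 9.81 and 9.91 at 24 h, and 8.88 and 8.84 at 72 h. It rose by 0.91 ± 0.21 (adjusted p = 0.0476) in the jejunum at 6 h, and its colon change was 0.24 ± 0.18 (adjusted p = 0.579) at 6 h and 0.75 ± 0.18 (adjusted p = 0.0895) at 24 h. Chek1, a checkpoint kinase of DNA damage, fell by 0.75 ± 0.15 (adjusted p = 0.0401) in the colon at 24 h and rose by 0.52 ± 0.12 (adjusted p = 0.0195) in the jejunum at 72 h. Cdc25b, a phosphatase that activates CDK1, rose by 0.62 ± 0.10 (adjusted p = 0.0042) in the jejunum at 72 h.

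Of 12 regulators that bind mitotic promoters, 1 passed in the jejunum at 6 h and 0 in the colon with limma (5 at an unadjusted p under 0.05). Of all probe sets 3.49% and 1.19% passed there in either direction. Nfyb, a subunit of the NF-Y factor that binds the CCAAT box marked in the promoters above, rose by 0.48 ± 0.08 (adjusted p = 0.0168) in the jejunum at 6 h. Foxm1, a transcription factor of G2 and mitosis, was at -0.03 ± 0.11 (adjusted p = 0.918) in the jejunum and -0.32 ± 0.10 (adjusted p = 0.193) in the colon, and Mybl2, a partner of MuvB, at -0.07 ± 0.11 (adjusted p = 0.765) and 0.16 ± 0.11 (adjusted p = 0.544). Mybl2 rose by 0.39 ± 0.11 (adjusted p = 0.0375) in the jejunum at 72 h, when 4 of the 12 rose (11.9% of all probe sets).

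**Figure D5:**
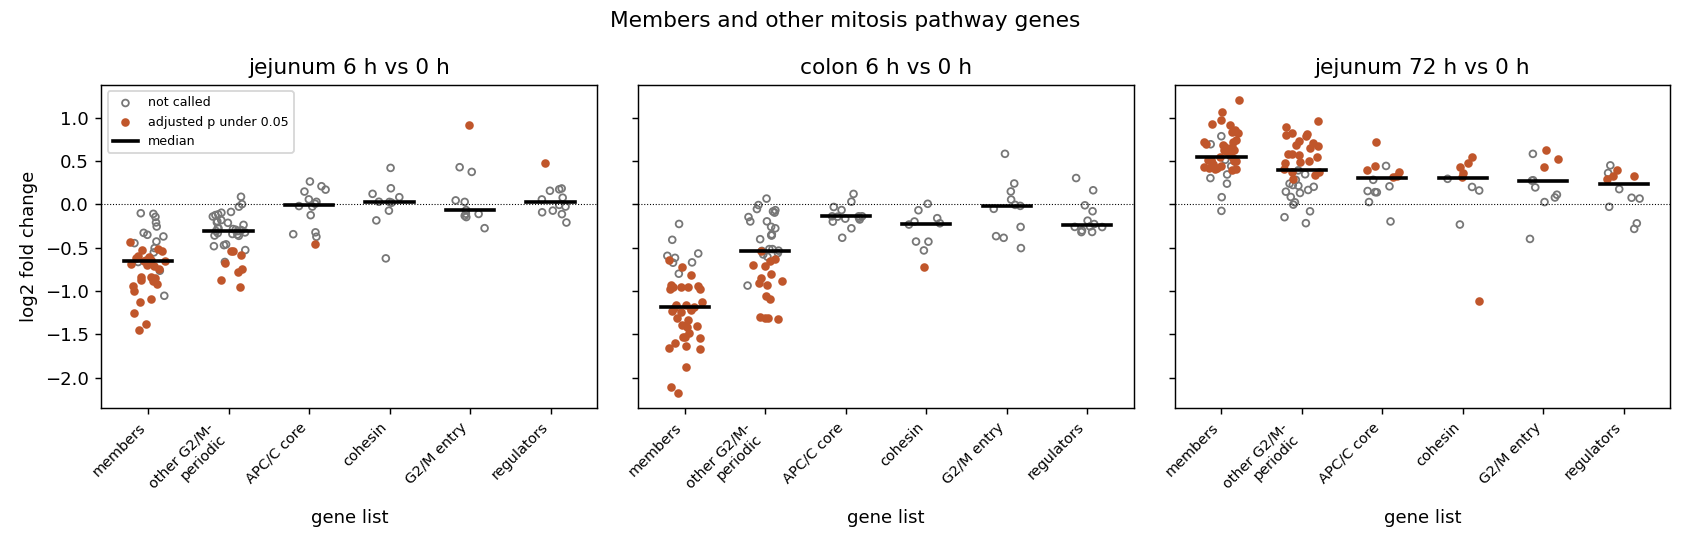
Log2 fold changes of the 43 mitosis genes and of 5 other lists (other G2 and mitosis genes, core anaphase-promoting complex, cohesin, G2/M entry control, regulators) in jejunum 6 h, colon 6 h and jejunum 72 h against 0 h; each point is 1 gene, filled where the adjusted p is under 0.05, and bars are medians. The medians of mitosis genes were -0.65, -1.18 and 0.55, and those of the other G2 and mitosis genes -0.31, -0.54 and 0.39.

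Markers of cell types that could alter these levels were read beside them. Of 5 crypt base markers 1 fell in the jejunum at 6 h (1.19% of all probe sets), with a median change of -0.31. In the colon 0 passed with limma (0 at an unadjusted p under 0.05), with a median of -0.10. The crypt base median per array did not fall in the jejunum: it was 7.89 and 7.79 at 6 h, against 7.62 and 7.79 at 0 h. The gene that fell was Lgr5, a receptor of crypt base stem cells, which was 6.45 and 6.43 at 6 h, against 6.97 and 7.16 at 0 h in the jejunum, and fell by 0.62 ± 0.12 (adjusted p = 0.0304). The 7 epithelial markers had medians of 0.06 in the jejunum and -0.09 in the colon at 6 h with 0 passing in limma (0 at an unadjusted p under 0.05 in both), and the 7 smooth muscle markers medians of 0.03 and -0.003. Their median per array was nevertheless 10.87 and 10.95 in the jejunum at 6 h, against 10.12 and 10.29 at 0 h. Pancreatic acinar markers had a median change of 1.53 in the colon at 6 h, where they were at 9.49 in replicate 1 and 7.05 in replicate 2. Of 5 B cell and 7 T cell markers 0 passed at 6 h in the jejunum with limma (2 and 3 at an unadjusted p under 0.05) and 0 in the colon (0 and 1). The part of these in the falls was not tested, except that without colon 6 h replicate 1 the median of the 43 genes there was -1.13.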

How the data were processed

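Affymetrix arrays of the rat genome were deposited by the authors as RMA log2 signals, per the submitters' processing notes, with no version given, and the sources used here do not say whether all 30 arrays were normalized together. From the deposited log2 values, 57 control probe sets were left out and 31042 were tested with limma 3.58.1 (R 4.3.3, statmod 1.5.0): lmFit and eBayes on group means, two-sided, Benjamini-Hochberg adjusted, threshold 0.05, with each tissue's 10 arrays in 1 fit, and all 30 arrays in 1 fit for comparisons between tissues. The p-values measure the spread between pools of 3 rats, with 2 pools a group. Probe sets were named from GEO's platform annotation: 20826 carry 1 symbol, 436 several and 9780 none. Every measured gene may be named. Values are printed in full for the 3 smallest adjusted p of each role, and in the further lists at most 4 genes per list and comparison are named, besides Foxm1, Mybl2, Cdkn1a, Cdc25b, Cdc25c and Wee1. The genes and lists were chosen with earlier results of these data known. Same-numbered arrays were not taken as paired. Alternatives were a filter on dim probe sets, quantile normalization, trend and robust variances, averaged probe sets, a replicate block and array weights. Arrays that stood apart by pancreatic, Pgc or GAPDH signal were also left out. So was each array in turn, in which the lone array is assumed to vary like the other groups. The fit was run on simulated data with noise independent between probe sets. As real genes are not independent, that run checks the code and not the calls. The E2F-like element of these promoters was not searched.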

Additional observations from a re-analysis of the deposited data

Results flagged for a closer look

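The changes after irinotecan differed between jejunum and colon for some mitosis genes, by a test of the difference itself in 1 limma fit of all 30 arrays. At 6 h this held for 1 gene (0.29% of all probe sets), Knstrn, with a jejunal response above the colonic one by 0.66 on the log2 scale. At 24 h it held for 5 genes (0.122% of all probe sets), including Knstrn (1.05), Dlgap5 (0.92) and Kif20a (1.27). At 72 h it held for 3 genes (0.535% of all probe sets), Dlgap5 (0.72), Knstrn (0.67) and Kif20a (0.90). Untreated levels of the 5 genes were lower in the jejunum than in the colon, with -0.71 for Dlgap5, -0.40 for Knstrn and -0.48 for Kif20a. Dlgap5 at 72 h stood at 8.47 and 8.37 in the jejunum and 8.33 and 8.48 in the colon. The part of the untreated levels was not tested. After quantile normalization no gene passed at 6 or 72 h, and the counts at these times also moved with single arrays. Colon 24 h replicate 1 carried a Pgc signal of 13.67 and jejunum 24 h replicate 1 a 3′ shift of GAPDH of 0.82. Their part in these differences was not tested beyond the counts without them, which were 2 and 9 genes at 24 h.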

How the results depend on the processing

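No fold change that passed turned its direction under an alternative, while the stomach median at 72 h, where 0 genes passed, turned to -0.17 without stomach 72 h replicate 1. The counts that moved by over 1.5 times under other settings were these. With array weights the count was 3 in the stomach at 6 h, 1 in the jejunum for 24 h against 6 h, 12 for jejunum minus colon at 6 h and 10 at 72 h, 3 for jejunum minus stomach at 72 h, 20 for untreated jejunum against colon and 35 for untreated jejunum against stomach. Without the arrays with transcripts of neighbouring tissue it was 2 in the stomach at 6 h, 11 for jejunum minus colon at 24 h, 6 at 72 h, 19 for jejunum minus stomach at 72 h and 18 for untreated jejunum against colon. Without the arrays with a 3′ shift it was 1 in the jejunum at 24 h, 23 for 24 h against 6 h, 2 for jejunum minus colon at 6 h and 10 at 24 h, and 3 for jejunum minus stomach at 72 h. In 1 fit of all 30 arrays it was 8 in the stomach at 6 h, 2 for stomach 72 h against 24 h and 4 for jejunum 24 h against 6 h. Quantile normalization gave 21 in the jejunum at 72 h, and for jejunum minus colon 0 at 6 h, 2 at 24 h and 0 at 72 h. Without dim probe sets 2 genes passed for jejunum minus colon at 6 h and 2 for jejunum minus stomach at 72 h, and trend and robust variances or averaged probe sets gave 0 for jejunum minus colon at 6 h. With 1 array left out, the counts ran from 0 to 5 for stomach 72 h against 24 h, 1 to 3 for jejunum 6 h, 0 to 12 for jejunum 24 h, 9 to 22 for jejunum 72 h, 0 to 23 for jejunum 24 h against 6 h, 21 to 41 for jejunum 72 h against 24 h, 23 to 33 for colon 6 h, 0 to 38 for colon 24 h, and 34 to 40 for colon 72 h against 24 h. For jejunum minus colon they ran from 0 to 2 at 6 h, 1 to 9 at 24 h and 0 to 2 at 72 h, for jejunum minus stomach at 72 h from 0 to 16, and for untreated jejunum against colon from 7 to 10, jejunum against stomach from 10 to 17 and colon against stomach from 26 to 30. Of these, colon 72 h against 24 h (39 with all arrays) and untreated colon against stomach (33 with all arrays) stayed within 1.5 times. Fewer arrays leave fewer residual degrees of freedom in these fits; the cause of the other shifts was not tested.

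With the replicate number as a fixed replicate block, 5 genes passed for jejunum 24 h against 6 h and 0 for jejunum minus colon at 6 h, and as a random block of time and number the counts were 3 at 6 h and 10 at 24 h for jejunum minus colon and 2 for jejunum minus stomach at 72 h. The numbers are not said to pair arrays: deviations from the group means correlated from -0.5822 to 0.4341 over 30 pairs of times within a tissue, 11 of them over 0.1, and from -0.2153 to 0.5026 over 15 pairs of tissues at a time, 5 of them over 0.1. The precision is limited by 2 arrays a group, and dim probe sets such as that of Cenpa may not show a change.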
